A study of Fragaria x ananassa with 21 samples.

Results

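In the receptacle of strawberry fruit injected with abscisic acid (ABA), a group of assembled transcripts was at least 2-fold lower on day 8 than on day 5. On day 8 they were 4-fold or more below the water control. Some were already near 0 on day 5, the lowest at 0.409 RPKM. A transcript of the assembly is called a unigene, and a component is a set of unigenes that the assembler kept together because they share sequence. A unigene was taken as a member when it was at least 500 nt long, had at least 10 RPKM (reads per kilobase, corrected for library size) in the control of day 8, was at least 4-fold lower in ABA8 than in CK8, was at least 2-fold lower in ABA8 than in ABA5, and was less than 2-fold higher in CK5 than in CK8. Ratios were taken after 0.1 RPKM was added to each level, a missing level was counted as 0, and 1 unigene was kept for each component, that of the highest mean. The rule gave 102 unigenes, and 79 members of 67232 components (109953 unigenes). The levels of CK5, CK8, ABA5 and ABA8 chose the members, so that the difference between ABA8 and CK8 and that between ABA8 and ABA5 are described here and not tested.

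The fruits were of the octaploid cultivar Toyonoka, and fruits of about 2 weeks after anthesis received 100 μL of solution in the core of the receptacle. ABA5 and ABA8 are receptacles taken 5 and 8 days after ABA at 1 μM, and NDGA5 and NDGA8 are those taken on the same days after NDGA at 100 μM. CK0, CK5 and CK8 are receptacles injected with water and taken on day 0, 5 and 8. Achenes were removed from all of them, and RNA extracted separately from sets of 10 fruits was pooled into 1 library for each of the 7 conditions.

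ABA is the hormone whose level increases as the strawberry, a non-climacteric fruit, turns red, and fruit given ABA colours earlier. NDGA (nordihydroguaiaretic acid) blocks the cleavage of carotenoid precursors from which ABA is made, and fruit given NDGA ripens later. The days of harvest followed colour, with ABA fruit beginning to redden on day 5 and control fruit on day 8, so that ABA8 was also a riper fruit than CK8, and the treatment and the stage of ripening cannot be told apart in that pair. In bulk receptacle RNA, fewer cells of a type and less RNA in each cell cannot be told apart either.

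The 7 libraries held between 53653395 reads (NDGA8) and 89152239 reads (ABA8), so the library in which the members were low was the deepest. With 1 library for each condition differences between fruits were not measured, and no p-value is given. The 95% intervals given with ratios are exact (Clopper-Pearson) and cover counting error only; they leave out the added 0.1 RPKM, which is why a ratio of a low level can stand outside its interval. A unigene was called in a comparison past a 2-fold ratio, provided that either library reached 1 RPKM, and each count of members is set beside the percent called over 6967 components whose best expressed unigene passed the same minimum length and CK8 level. A member was instead the best expressed of the unigenes that passed the rule. Of the 79, 64 were also the best expressed unigene of their component, so the sets compared are not fully alike. Between ABA8 and CK8 the median ratio of unigenes was shifted by −0.25 on the log2 scale, and that between NDGA8 and CK8 by 0.15. After the libraries were rescaled by these medians, 47 of the 79 members passed the rule.

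The members were reduced in ABA8 to different extents. They had a median of 2.82 RPKM in ABA8 (range 0.0545 to 91.1) and of 18.6 RPKM in CK8 (range 10.2 to 382), and the median member was 5.45-fold lower. The difference was between 4.06-fold and 5-fold for 32 members, at least 8-fold for 21 and at least 20-fold for 8, with the largest at 89.2-fold. Over the components set beside them, 1.89% were at least 4-fold lower in ABA8 (10.4% over all components measured), which the rule makes 79 of 79 among members. From the reads alone, 65 members had an interval that lay wholly beyond 4-fold. Against ABA5, ABA8 was 2.02-fold to 87.5-fold lower, with a median of 2.78-fold, and 5.22% of the components set beside them were at least 2-fold lower (12.6% over all). In 13 members ABA8 was under 1 RPKM, in 13 others it was still at least 10 RPKM, and 10 members had fewer than 100 reads there.

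Over all 7 libraries, ABA8 was the lowest for 71 of the 79 members, against 42.9% of the components set beside them. CK0 was the lowest for 5 members and NDGA5 for 3. The highest library varied more. It was CK0 for 28 members, CK8 for 26, NDGA8 for 11, NDGA5 for 11, ABA5 for 2 and CK5 for 1. Of the components set beside them, 29.6% were highest in CK0, 13.7% in CK8, 18.4% in NDGA8 and 7.82% in NDGA5. The members thus shared the low end of their range, which the rule set, and had their peaks in different fruits.

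The unigenes nearest to the limit of 4-fold, on either side of it, are given for their values only. The 3 members nearest to 4-fold were comp114991_c0_seq7 (4.06-fold, 5.19 RPKM in ABA8 against 21.4 RPKM in CK8), comp105657_c0_seq1 (4.07-fold, 2.60 RPKM in ABA8 against 10.9 RPKM in CK8) and comp118945_c0_seq1 (4.09-fold, 2.58 RPKM in ABA8 against 10.8 RPKM in CK8). Left out were comp101790_c1_seq11 (3.99-fold, 52.2 RPKM in ABA8 against 209 RPKM in CK8), comp108772_c0_seq9 (3.99-fold, 11.3 RPKM in ABA8 against 45.5 RPKM in CK8) and comp113588_c0_seq5 (3.98-fold, 46.1 RPKM in ABA8 against 184 RPKM in CK8). The 3 left out had the higher levels in both libraries.

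**Figure D1:**
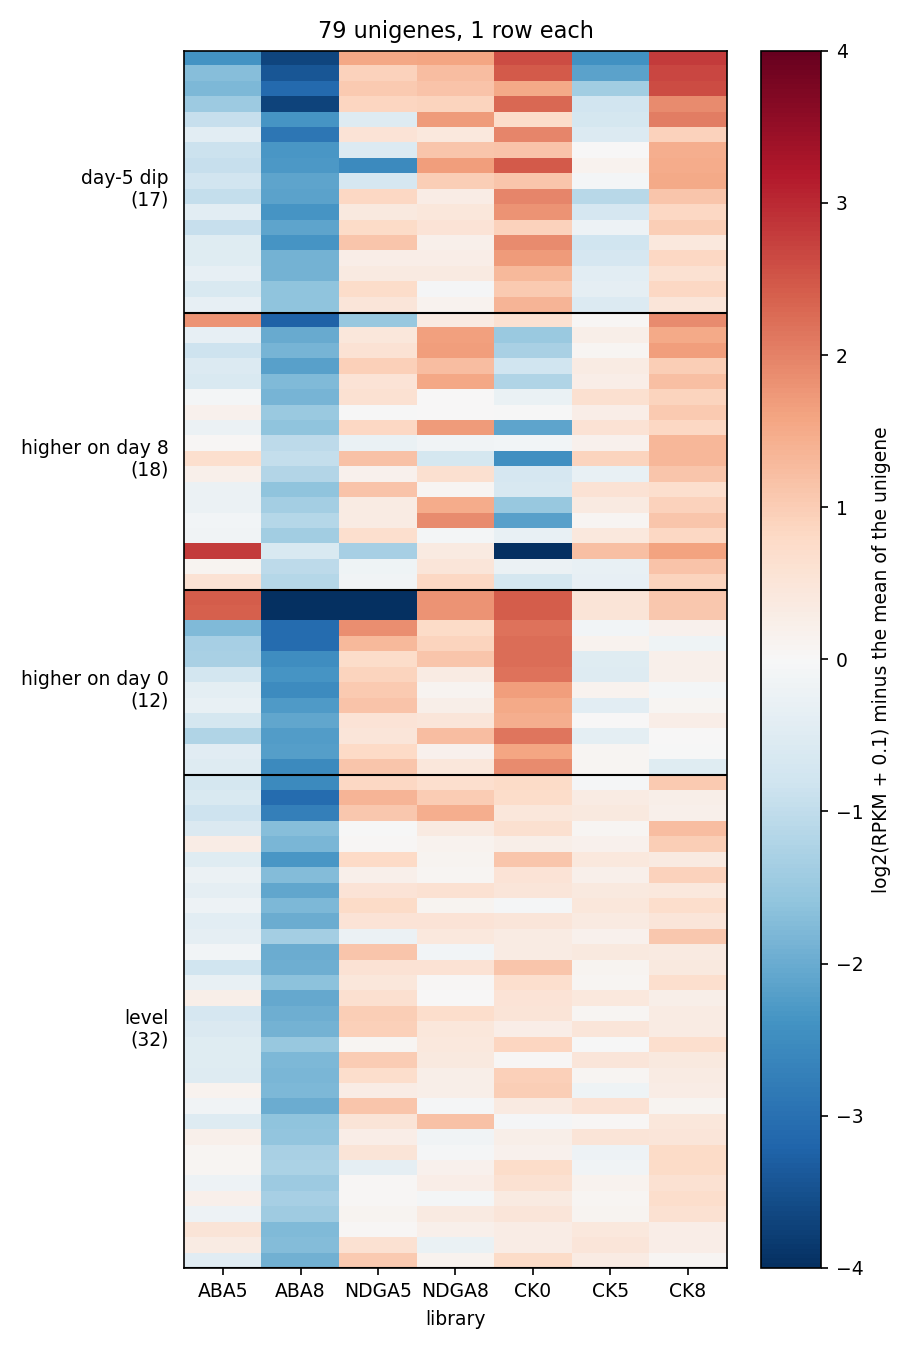
Levels of the 79 members, 1 row each, in the 7 libraries, as log2(RPKM + 0.1) minus the mean of the unigene, from blue (low) to red (high); colours end at 4 units. Rows are grouped by the course in control fruit, with 17, 18, 12 and 32 unigenes, and ABA8 is the lowest column for 71 of them.

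By their course in water-injected fruit the members fell into 4 groups, which were drawn after the levels had been seen and serve only to describe them. A day-5 dip, with CK5 at 50% or less of both CK0 and CK8, was found in 17 members. A further 18 were at least 2-fold higher in CK8 than in CK0, 12 were at least 2-fold lower in CK8 than in CK0, and 32 stayed within 2-fold between these days. The dip was seen in 21.5% of the members, against 1.29% of the components set beside them and 2.86% of all components that averaged 1 RPKM or more. The rule bears on this share, since it kept unigenes with CK5 below 2-fold of CK8, but it did not use CK0.

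**Figure D2:**
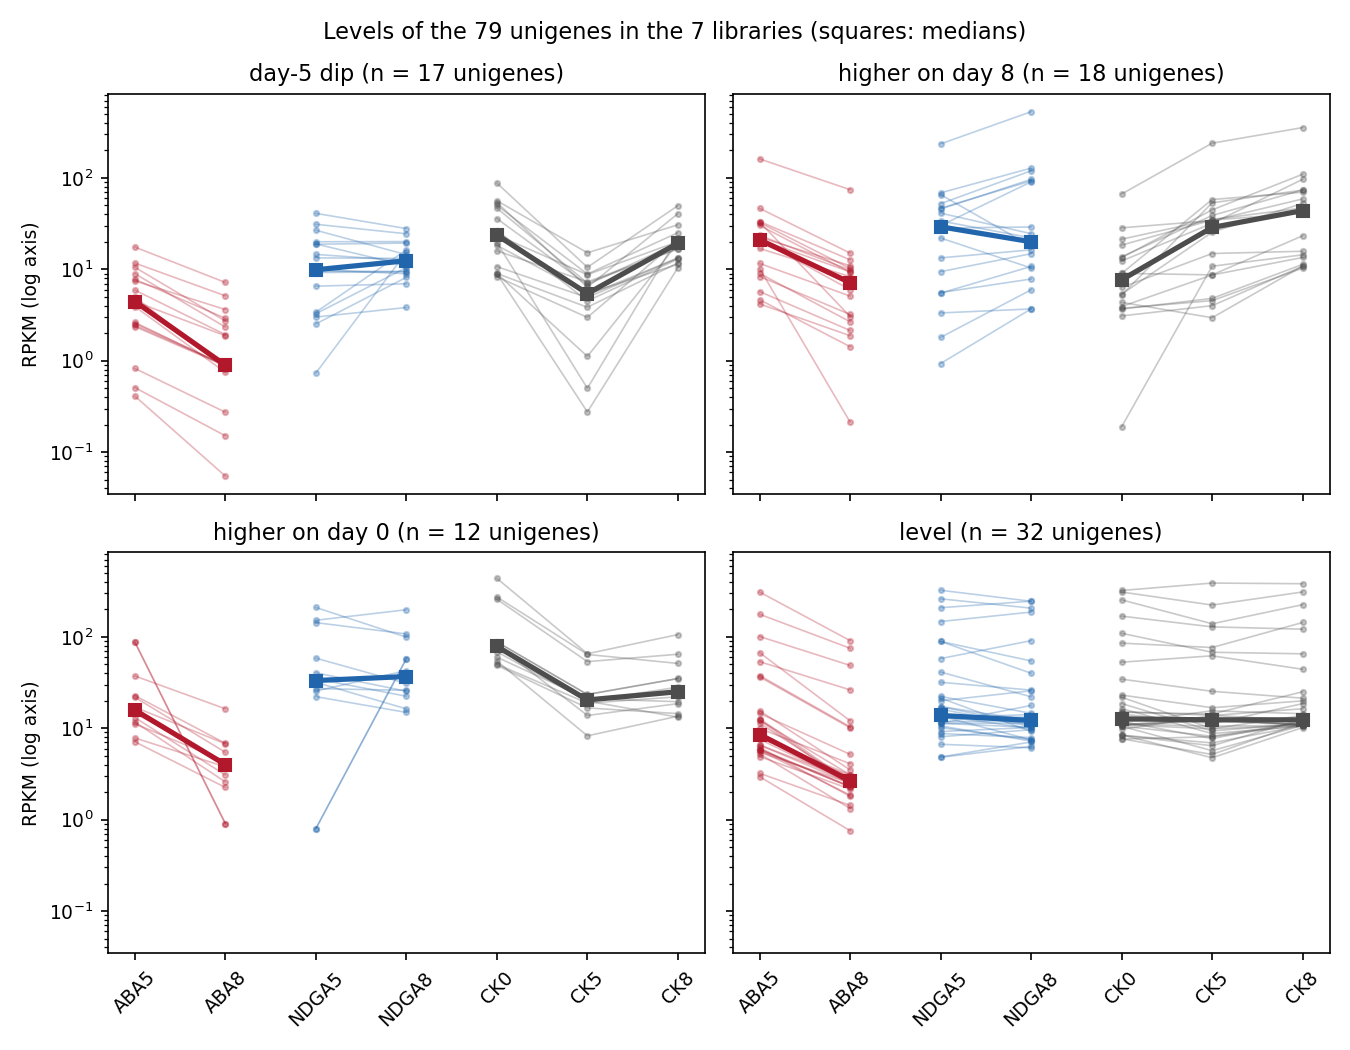
RPKM (log axis) of the members in the 7 libraries, in 4 panels by course in control fruit; thin lines join the days of a treatment for a unigene (red ABA, blue NDGA, grey CK) and squares are medians. In the day-5 dip panel the medians are 0.892 RPKM in ABA8, 12.4 RPKM in NDGA8, 5.43 RPKM in CK5 and 19.3 RPKM in CK8.

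The 17 members with a day-5 dip had the deepest loss in ABA8, with a median 12.1-fold below CK8, where the medians of the other 3 courses lay between 4.73-fold and 5.61-fold. Their median level was 4.45 RPKM in ABA5 and 0.892 RPKM in ABA8, 9.90 RPKM in NDGA5 and 12.4 RPKM in NDGA8, and 23.7, 5.43 and 19.3 RPKM in CK0, CK5 and CK8. On day 5, ABA5 was within 2-fold of CK5 in 16 of the 17. The same held for 6726 of 6953 components measured among those set beside the members. Of the 16, comp52641_c0_seq2 and comp101834_c0_seq10 were under 1 RPKM in both libraries, too low for the size rule. NDGA5 was above CK5 in 14 of them (40.9% of the components set beside the members). It was at least 2-fold higher in 10 and lower in 1, against 1.54% and 1.62%. On day 8 NDGA8 lay between CK5 and CK8 in 16 of the 17. The course was chosen for a low CK5, which favours other libraries standing above CK5, so these counts are descriptions and a departure of NDGA fruit was not tested.

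comp52641_c0_seq2 (745 nt) was the member of the largest loss. It had 0.508 RPKM in ABA5 and 0.151 RPKM in ABA8, 9.21 RPKM in NDGA5 and 9.43 RPKM in NDGA8, and 19.7, 0.500 and 22.2 RPKM in CK0, CK5 and CK8. ABA8 held 10 reads against 1124 reads in CK8, 89.2-fold lower (80.0 to 309). The unigene was thus near 0 in both ABA libraries and in the control of day 5, and present in the other 4 libraries. NDGA5 was 15.5-fold above CK5 (12.2 to 29.3), while NDGA8 was 2.34-fold below CK8 (2.10 to 2.66).

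comp101834_c0_seq10 (3294 nt) had the same order of libraries. Its levels were 0.409 and 0.0545 RPKM in ABA5 and ABA8, 3.01 and 3.82 RPKM in NDGA5 and NDGA8, and 8.94, 0.275 and 10.4 RPKM in CK0, CK5 and CK8. With 16 reads, ABA8 was 68.0-fold below CK8 (117 to 335). The read counts of the 4 unigenes of its component added up to 34 in ABA8 and 5260 in CK8. In CK8 this unigene and comp101834_c0_seq14 were each given 2326 reads, so the sum can count a read more than once.

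comp111268_c0_seq3 (740 nt) was at 0.822 and 0.273 RPKM in ABA5 and ABA8, at 6.55 and 6.95 RPKM in NDGA5 and NDGA8, and at 9.01, 1.12 and 19.3 RPKM in CK0, CK5 and CK8. Its loss in ABA8 was 52.0-fold (44.5 to 120), on 18 reads. These 3 unigenes were all at 1.12 RPKM or less in ABA5, ABA8 and CK5, and had 3.01 RPKM or more in every NDGA library.

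comp109554_c0_seq19 (1463 nt) stood at a higher level, with 3.91 and 0.744 RPKM in ABA5 and ABA8, 20.0 and 20.1 RPKM in NDGA5 and NDGA8, and 53.9, 6.36 and 40.7 RPKM in CK0, CK5 and CK8. ABA8 was 48.4-fold below CK8 (44.7 to 67.6). Its component holds 10 unigenes, and their reads together, corrected for library size, were only 2.23-fold fewer in ABA8. Of the other 9, 8 were at least 2-fold higher in ABA8 than in CK8, such as comp109554_c0_seq1, with 2.33 RPKM in ABA8 against 0.535 RPKM in CK8, and the ninth was 1.77-fold higher. The loss in this component was that of a single assembled form.

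Among the other dipping members, comp95428_c1_seq1 had 0.888 RPKM in ABA8 against 20.7 RPKM in CK8, a loss of 21.1-fold (17.6 to 31.5). comp107153_c0_seq12 was 14.2-fold lower (11.3 to 22.6), with 0.820 RPKM in ABA8 against 12.9 RPKM in CK8, and comp111588_c0_seq1 was 13.7-fold lower (13.0 to 17.6), with 0.881 RPKM in ABA8 against 13.3 RPKM in CK8. comp90667_c0_seq2, named here after its values were seen, was the exception in NDGA fruit. It had 0.734 RPKM in NDGA5, its lowest library, against 5.20 RPKM in CK5, and 15.4 RPKM in NDGA8 against 13.3 RPKM in CK8.

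Only 4 of the 79 members carried an annotation in the files used here, and 2 of these were among the dipping ones. Annotations came from the authors' list of small RNAs paired with unigenes, which held 3917 of the 109953 unigenes. The lack of an annotation is therefore no trait of the members. comp112521_c0_seq1 (2291 nt) was assigned the terms ion channel activity, cAMP, cGMP and calmodulin binding, and plant-type hypersensitive response. Channels that bind cyclic nucleotides and calmodulin carry cations such as calcium across plant membranes. It was at 2.36 and 0.876 RPKM in ABA5 and ABA8, at 2.53 and 8.18 RPKM in NDGA5 and NDGA8, and at 9.01, 3.85 and 11.7 RPKM in CK0, CK5 and CK8. The difference between ABA8 and CK8 was 12.1-fold (11.5 to 15.7). ABA5 and NDGA5 were both below CK5 in this unigene, whereas NDGA5 was above CK5 in 14 of the 17.

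comp88903_c0_seq1 (1521 nt) was assigned caffeate O-methyltransferase activity and lignin biosynthesis. Caffeate O-methyltransferases add methyl groups to the precursors of lignin, the polymer that stiffens vascular cell walls. It had 7.47 and 3.63 RPKM in ABA5 and ABA8, 19.0 and 10.99 RPKM in NDGA5 and NDGA8, and 23.7, 8.75 and 20.1 RPKM in CK0, CK5 and CK8. ABA8 was 5.42-fold below CK8 (5.02 to 6.13), and NDGA5 was 2.15-fold above CK5.

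The other annotated members belong to DNA replication. comp118173_c0_seq8 (1199 nt) was described as minichromosome maintenance protein 6, a subunit of the helicase that opens DNA at replication origins, and its level is usually tied to dividing cells. It had 6.56 and 2.52 RPKM in ABA5 and ABA8, 4.86 and 7.09 RPKM in NDGA5 and NDGA8, and 10.5, 5.69 and 10.7 RPKM in CK0, CK5 and CK8. ABA8 was 4.15-fold below CK8 (3.72 to 4.92), an interval that reaches below the limit of 4-fold.

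comp100027_c0_seq1 (5410 nt) was assigned ATP-dependent DNA ligase activity, endonuclease activity and DNA replication. DNA ligases seal breaks in a DNA strand. It was at 87.6 RPKM in ABA5 and 0.902 RPKM in ABA8, at 0.800 RPKM in NDGA5 and 57.9 RPKM in NDGA8, and at 88.4, 23.5 and 35.1 RPKM in CK0, CK5 and CK8. High and low libraries thus alternated between the days in opposite ways in the 2 treatments. ABA5 was 3.72-fold above CK5 (3.64 to 3.82) and ABA8 35.1-fold below CK8 (35.4 to 42.9). NDGA5 was 26.2-fold below CK5 (26.3 to 32.8) and NDGA8 1.65-fold above CK8 (1.61 to 1.69).

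comp97199_c0_seq4 (5418 nt) followed it in every library, with 87.4 and 0.903 RPKM in ABA5 and ABA8, 0.801 and 57.8 RPKM in NDGA5 and NDGA8, and 88.1, 23.4 and 35.0 RPKM in CK0, CK5 and CK8. Over the 7 libraries the ratio of the pair varied by 0.01 on the log2 scale, less than for any other pair of members, and they were counted as 2 members; whether they are copies of 1 sequence was not tested. The next closest pairs were comp111286_c0_seq1 with comp95174_c0_seq2, whose ratio varied by 1.11-fold, and comp99045_c0_seq7 with comp106798_c0_seq3, by 1.15-fold. The sequences of the unigenes were not analysed here.

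The same alternation, at lower levels, was seen in comp100571_c1_seq7 (898 nt) on the ABA side. It had 10.2 and 0.212 RPKM in ABA5 and ABA8, 0.932 and 3.69 RPKM in NDGA5 and NDGA8, and 4.36, 2.95 and 10.9 RPKM in CK0, CK5 and CK8. ABA5 was 3.37-fold above CK5 (2.89 to 4.13) and ABA8 35.1-fold below CK8 (31.7 to 88.3), on 17 reads. Its component of 10 unigenes was 5.94-fold lower in reads corrected for library size.

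Members that were higher in CK8 than in CK0 held several of the best expressed ones. The 18 had medians of 21.0 and 7.15 RPKM in ABA5 and ABA8, 29.2 and 20.0 RPKM in NDGA5 and NDGA8, and 7.68, 28.7 and 44.0 RPKM in CK0, CK5 and CK8. NDGA8 was the highest library for 7 of them and CK8 for 9. The levels in NDGA8 ranged from 0.244-fold to 1.83-fold of CK8, so NDGA fruit did not follow a common direction in this course.

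comp103492_c0_seq8 (798 nt) was the second best expressed member in CK8. It had 162 and 74.4 RPKM in ABA5 and ABA8, 236 and 531 RPKM in NDGA5 and NDGA8, and 66.7, 240 and 356 RPKM in CK0, CK5 and CK8. ABA8 was 4.78-fold below CK8 (4.64 to 4.93), and NDGA8 was 1.49-fold above it (1.46 to 1.52). The level in ABA8 remained above that of CK0, as in 5 of the 18 members of this course.

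comp101474_c0_seq6 (569 nt), with 9.28 RPKM in ABA8 against 110 RPKM in CK8, was 11.7-fold lower (10.7 to 13.0) and had 120 RPKM in NDGA8. comp103902_c1_seq8 (596 nt) had 8.32 RPKM in ABA8, 96.6 RPKM in NDGA8 and 96.5 RPKM in CK8, and comp103205_c0_seq1 (1135 nt) had 9.39 RPKM in ABA8, 93.0 RPKM in NDGA8 and 73.9 RPKM in CK8. In these 3 unigenes, CK0 was between 12.3 and 13.7 RPKM, and NDGA8 stood within 2-fold of CK8. At the other end, comp103408_c0_seq3 (1429 nt) had the lowest ratio of NDGA8 to CK8 of all members, at 17.9 RPKM in NDGA8 against 73.7 RPKM in CK8, 4.09-fold lower (3.88 to 4.36). In ABA8 it was at 15.1 RPKM, so both treatments were low on day 8, and it had 5.22 RPKM in CK0.

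Of the 12 members that were lower in CK8 than in CK0, 6 were at least 2-fold higher in NDGA5 than in CK5, and 2, the pair comp100027_c0_seq1 and comp97199_c0_seq4, were at least 2-fold lower, at 0.800 and 0.801 RPKM in NDGA5. Of the components set beside the members, 1.54% were higher and 1.62% lower. The group's medians were 15.8 and 4.01 RPKM in ABA5 and ABA8, 33.3 and 36.9 RPKM in NDGA5 and NDGA8, and 78.7, 20.4 and 25.1 RPKM in CK0, CK5 and CK8. NDGA8 was above CK8 in 12 of 12, by 1.10-fold to 2.29-fold, and below CK0 in 12 of 12. Among the components set beside the members these shares were 59.8% and 46.3%. The order from high to low was thus CK0, NDGA8, CK8 and ABA8 in each of these unigenes. In it, CK0 above CK8 was set by the course and CK8 above ABA8 by the rule. Choosing unigenes with CK8 well below CK0 also favours another library lying between them, so the place of NDGA8 is a description. After the rescaling described above NDGA8 was above CK8 in 10 of the 12, and as deposited 2 of the 12 were at least 2-fold higher.

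comp104142_c0_seq4 (908 nt), the best expressed of this course, had 37.4 and 16.3 RPKM in ABA5 and ABA8, 152 and 199 RPKM in NDGA5 and NDGA8, and 438, 65.5 and 106 RPKM in CK0, CK5 and CK8. comp119855_c0_seq3 (1251 nt) had 3.78 RPKM in ABA8 against 18.6 RPKM in CK8, and 42.8 RPKM in NDGA8, 2.29-fold above CK8 (2.16 to 2.45). In this second unigene the reads of the component of 5 unigenes, corrected for library size, were only 1.61-fold fewer in ABA8.

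The 32 level members had medians of 8.54 and 2.67 RPKM in ABA5 and ABA8 and of 13.8 and 12.2 RPKM in NDGA5 and NDGA8, against 12.7, 12.4 and 12.4 RPKM in CK0, CK5 and CK8. Of the 32, none was at least 2-fold lower and 1 was higher in NDGA8 than in CK8, against 2.4% and 1.05% of the components set beside the members. NDGA8 was below CK8 in 22 of the 32 (40.2% of those components), with a median 1.20-fold lower. The low level in ABA8 was set by the rule. ABA5 was below CK5 in 26 of the 32, although only 2 of them passed the size rule. Of the components set beside the members, ABA5 was below CK5 in 66.9%, and 1.28% passed the size rule.

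comp101242_c0_seq5 (1056 nt) was the best expressed member in CK8. It had 310 and 91.1 RPKM in ABA5 and ABA8, 324 and 246 RPKM in NDGA5 and NDGA8, and 322, 389 and 382 RPKM in CK0, CK5 and CK8, and ABA8 was 4.19-fold below CK8 (4.10 to 4.30). comp99045_c0_seq7 (781 nt) had 75.1 RPKM in ABA8 against 311 RPKM in CK8, 4.13-fold lower (4.01 to 4.27), and comp106260_c2_seq7 (815 nt) had 48.8 RPKM in ABA8 against 226 RPKM in CK8, 4.62-fold lower (4.45 to 4.80). These 3 members kept 48.8 RPKM or more in ABA8, so their level there was reduced and not near 0.

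comp105642_c0_seq11 (1613 nt) had 26.3 RPKM in ABA8 against 144 RPKM in CK8, and 91.1 RPKM in NDGA8. comp100703_c0_seq1 (1149 nt) was lost to a greater extent, at 12.1 RPKM in ABA8 against 122 RPKM in CK8, 10.0-fold lower (9.49 to 10.7), and was at 261 and 207 RPKM in NDGA5 and NDGA8. comp100002_c0_seq1 (1549 nt) had the highest ratio of NDGA8 to CK8 of all members, with 25.8 RPKM in NDGA8 against 10.9 RPKM in CK8, 2.34-fold higher (2.19 to 2.53), and 1.33 RPKM in ABA8.

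In 9 comparisons other than those of the rule, set out here, the share of members past 2-fold was above that of the components set beside them in both directions, and in ABA8 with CK0 only for lower levels. Over all components measured, which include weakly expressed ones, the shares were larger, and the members were not above them throughout. In NDGA8 with CK8, 3 of the 79 were at least 2-fold higher and 9 lower, where 1.05% and 2.4% of the components set beside them passed (9.13% and 11% over all components measured), and the median log2 ratio was −0.26. After rescaling these counts were 2 and 13. Of the 9, 4 were in the day-5 dip course and 5 in the course higher on day 8. In NDGA5 with CK5, 17 were higher and 5 lower, against 1.54% and 1.62% (7.12% and 5.61% over all), with a median log2 ratio of 0.47. NDGA5 was above CK5 in 59 members (74.7%), against 40.9% of the components set beside them. CK5 entered the rule, and CK8 did as well, so these counts are descriptions only.

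**Figure D3:**
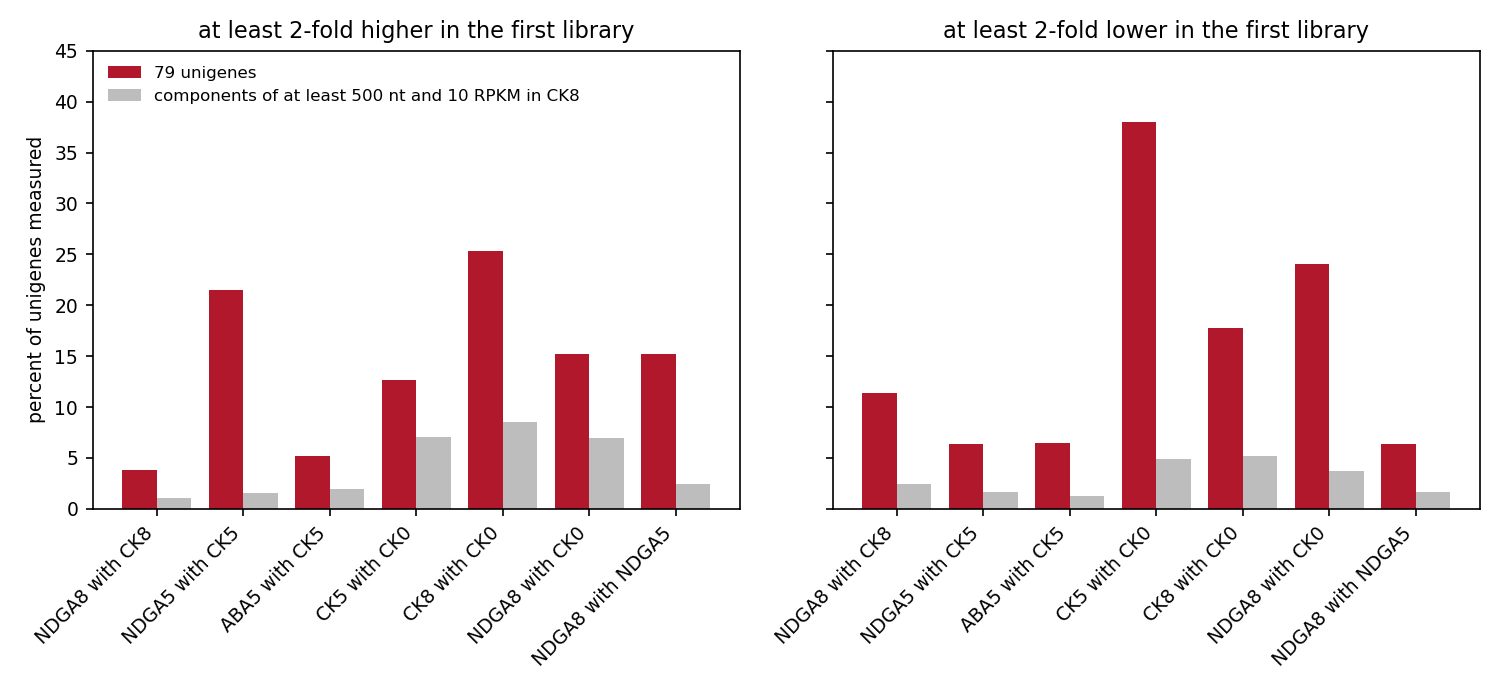
Percent of unigenes at least 2-fold higher (left) or lower (right) in the first library named than in the second, for the 79 members (red) and for 6967 components of at least 500 nt and 10 RPKM in CK8 (grey). Members reach 21.5% higher in NDGA5 with CK5, against 1.54%, and 38.0% lower in CK5 with CK0, against 4.9%.

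In ABA5 with CK5, 4 of 77 members measured were higher and 5 lower (5.19% and 6.49%), against 1.98% and 1.28% of the components set beside them and 6.49% and 5.73% over all components measured, and the median log2 ratio was −0.51. With a 1.5-fold size rule 31 were lower, but the share of components lower by that size was not counted. The 4 higher members were comp100027_c0_seq1, comp97199_c0_seq4, comp100571_c1_seq7 and comp71276_c0_seq1, of which the first pair is 1 pattern. ABA5 lay below CK5 in 56 of the 77 (72.7%), against 66.9% of the components set beside them. The rule used ABA5 and left out unigenes less than 2-fold higher there than in ABA8, so these counts are a description. Between the treatments, in ABA5 with NDGA5, 5 members were higher and 36 lower (45.6%), against 4.54% and 4.35% (8.95% and 10.8% over all).

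In the water control itself, 10 members were higher and 30 lower in CK5 than in CK0 (12.7% and 38.0%), against 7.04% and 4.9% of the components set beside them and 9.41% and 18% over all components measured. In CK8 with CK0, 20 were higher and 14 lower (25.3% and 17.7%), against 8.51% and 5.18%, and 14.1% and 18% over all, so that the share lower was near that of all components. In CK8 with CK5 27 were higher and none lower, against 3.52% and 2.02% (14.6% and 9.78% over all), and the rule allowed no other direction. In ABA8 with CK0, 3 were higher and 66 lower, against 9.55% and 17.5% (13.1% and 32.1% over all), with a median log2 ratio of −2.56. Most members in ABA8 were also below the fruit of day 0, but the rule chose members for a low ABA8, so this is a description.

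The libraries CK0, NDGA5 and NDGA8 had no part in the rule except in the mean that picked 1 unigene in each component. In NDGA8 with CK0, 12 members were higher and 19 lower, against 6.92% and 3.68% of the components set beside them (9.61% and 13.4% over all components measured). In NDGA5 with CK0, 10 were higher and 18 lower, against 5.25% and 3.19% (7.99% and 13.9% over all). In NDGA8 with NDGA5, 12 were higher and 5 lower, against 2.41% and 1.65% (7.22% and 6.22% over all). The 12 include the pair of comp100027_c0_seq1 and comp97199_c0_seq4, with 64.5-fold and 64.3-fold, and comp90667_c0_seq2, with 18.6-fold, and the others lay between 2.11-fold and 4.69-fold.

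Among components that met the rest of the rule, 71 were left out because ABA5 was less than 2-fold above ABA8. Their medians were 5.61 RPKM in ABA5 and 3.64 RPKM in ABA8, against 6.80 RPKM in CK5 and 25.0 RPKM in CK8. A day-5 dip was found in 40 of these 71 (56.3%), and in 17 of the 79 members (21.5%). NDGA8 was at least 2-fold lower than CK8 in 31 of the 71 (43.7%), and in 9 of the 79 members (11.4%). The rule itself divides these sets by ABA5, so this is a description.

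Within components, most other unigenes of the member's own assembly graph were also lower in ABA8, but they share reads with the member. The members' components held 167 other unigenes in 52 components, and 27 components consisted of the member alone. Of 137 other unigenes measured, 93 were at least 2-fold lower in ABA8 than in CK8 (70 of them 4-fold), 28 were neither, and 16, in 7 components, were at least 2-fold higher. Unigenes that came from the same assembly graph as the member, and share reads with it, were lower in 87 of 119 cases and higher in 14. In a different graph of the component, they were lower in 6 of 18 cases and higher in 2. Of all components measured, 23.7% were at least 2-fold lower and 11.3% higher in ABA8 than in CK8. Among the 167 other unigenes, 23 passed the rule themselves.

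**Figure D4:**
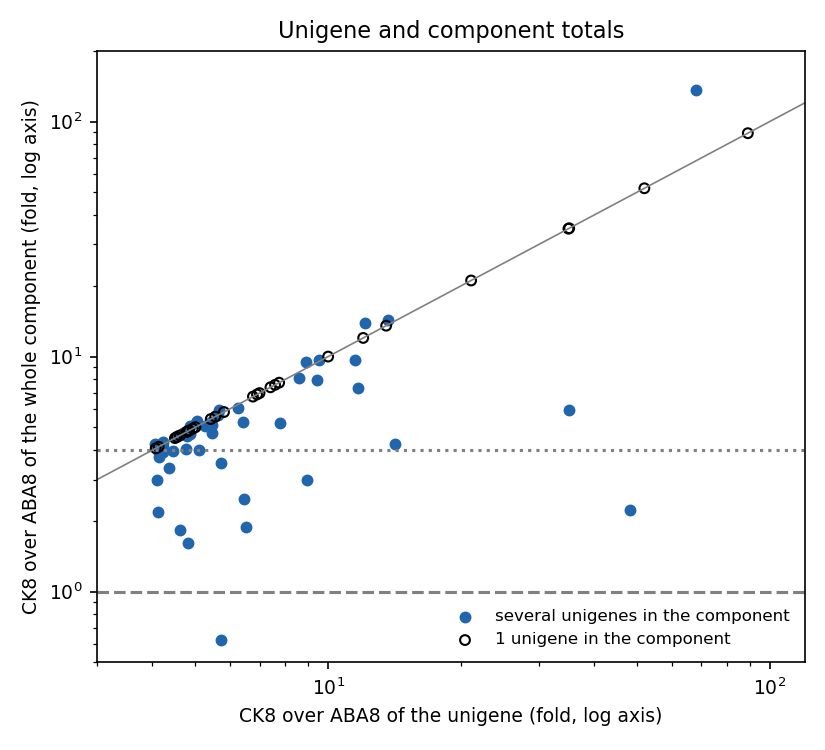
Fold by which CK8 exceeded ABA8 in the member (x axis) and in the summed read counts of its component, corrected for library size (y axis). Both axes are log axes. Components of several unigenes are blue and those of 1 unigene are open circles; a sum can count a read more than once. The solid line marks equal folds, the dotted line 4-fold and the dashed line 1-fold; 62 of 79 components lie at or above 4-fold and 1 lies below 1-fold.

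The read counts of all unigenes of a component were added and corrected for library size. Of the 79 sums, 62 were at least 4-fold lower in ABA8 than in CK8. Another 13 were between 2-fold and 4-fold, and 4 under 2-fold. Unigenes of a component can hold the same reads, so a sum can count a read more than once and gives such reads more weight. The 27 components of a single unigene are among the 62 by the rule, and of the 52 with several unigenes 35 were at least 4-fold lower. The 4 under 2-fold were chosen for mention after their values were seen. The components of comp119855_c0_seq3, comp106260_c2_seq7 and comp105799_c2_seq4 were 1.61-fold, 1.82-fold and 1.89-fold lower. The component of comp107473_c2_seq3 was higher in ABA8, with a ratio of CK8 to ABA8 of 0.624. The member itself had 10.2 RPKM in ABA8 against 58.9 RPKM in CK8, while comp107473_c0_seq8, from another graph of the component, had 67.0 RPKM in ABA8 against 13.7 RPKM in CK8.

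Small RNAs can direct the cleavage of transcripts that they pair with, and the degradome, which sequences the ends of cleaved transcripts, records such cuts. The authors' list of 5207 pairs of a small RNA and a unigene held 6 members, each paired with 1 small RNA. Both sequences that the result turns on, that with a cut and that of a conserved miRNA family, are given 5′ to 3′ in the deposited DNA letters, with the seed (bases 2 to 8) in capitals.
PC-3p-156950_11: aAAGAACTgactcgctaggg
gma-miR828a: tCTTGCTCaaatgagtattcca

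PC-3p-156950_11, a predicted small RNA of 20 bases, was paired with comp100027_c0_seq1 at positions 400 to 419 of the unigene. A cut at position 410 was listed with 1 read in CK8 and none in the other 6 degradome libraries. It had 10 and 14 reads in the ABA5 and ABA8 small RNA libraries, 9 and 6 in NDGA5 and NDGA8, and 2, 7 and 8 in CK0, CK5 and CK8. It was thus present in every library, at few reads. A single read does not separate a cut from background breakage. In the transcriptome the unigene held 435 reads in ABA8 against 12881 reads in CK8, and whether it was cut in either fruit was not tested.

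miR828 is a plant miRNA family best known for directing the cleavage of MYB transcription factor transcripts. gma-miR828a was paired with comp116485_c0_seq2, a unigene with no annotation in the files used here, at positions 486 to 506, and no cut was listed. The same sequence, named mdm-miR828a in the small RNA table, had 3 and 6 reads in ABA5 and ABA8, 0 and 2 in NDGA5 and NDGA8, and 1, 1 and 3 in CK0, CK5 and CK8. The other 4 pairs, on comp88903_c0_seq1, comp112521_c0_seq1, comp118173_c0_seq8 and comp113901_c0_seq8, also had no cut listed. Over the whole list a cut was listed for 859 pairs (16.5%), and on members for 1 of 6.

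None of the 79 members belonged to the pathway lists of the study, which the authors drew from these libraries and which are not independent of them. In ABA8 with CK8, the anthocyanin list, which includes the shikimate and phenylpropanoid steps, had 11 components higher and 17 lower of 71 measured. The carotenoid list had 2 higher and 5 lower of 35, the list of ascorbic acid 0 higher and 5 lower of 16, and that of folate 0 higher and 6 lower of 16. The chlorophyll list had none of 7 in either direction. Of the components set beside the members 3.98% were at least 2-fold higher and 10.6% lower in this comparison, and 11.3% and 23.7% of all components measured, so that lower calls were the more frequent in general. In NDGA8 with CK8 they had 2 higher and 13 lower of 69 (anthocyanins), 2 and 2 of 36 (carotenoids), 0 and 1 of 16 (ascorbic acid), 1 and 1 of 17 (folate), and none of 7 (chlorophyll). No component of these lists was 4-fold lower in ABA8 with 10 RPKM in CK8.

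The members were shorter than the components set beside them, with a median of 1064 nt (range 503 to 7345) against 1564 nt. The unigene of a component was picked differently in these sets, as given above. Searches for classes of function, for seed, vascular and green tissue proteins and for sequences of other organisms could reach only the 4 annotated members. They returned DNA replication for 2 of them, lignin for 1 and a membrane channel for 1, and no seed, green tissue or foreign protein. For the other 75 members no role is given here.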

How the data were processed

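Transcriptome, small RNA and degradome libraries of strawberry receptacles were made in 7 conditions, 1 pooled library each. Reads were filtered with the NGS QC toolkit and assembled with Trinity and TGICL, and the authors deposited RPKM for each unigene. Tool versions and the read counter: not given in the sources used here. RPKM multiplied by length gave whole reads in 100% of values (within 0.02 reads), from which library totals were obtained. An estimated count for each small RNA sequence and a whole count of degradome reads at each listed cleavage site were likewise deposited. The build that small RNAs were mapped to was not given in the sources used here. Deposited p-value and false discovery columns hold the authors' own comparisons and were not used, nor were normalized small RNA and degradome values.

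For ABA8 (day) and NDGA5 (treatment) the deposited design text departs from the sample labels and the study's methods, which were followed. Missing values (24030) were taken as 0. The rule, the size limits and the background are given in the results. One unigene for each component was the one of highest mean among those that passed, and 1 component is not reported here. The members and lists were chosen with earlier results of these data known. Named were the 10 members of highest ratio of CK8 to ABA8, the 10 of highest CK8, every annotated member, the 2 highest and 2 lowest in NDGA8 to CK8, members with a degradome site, and the 3 unigenes on each side of the limit. Others are said to be chosen after their values were seen. The steps were tested on simulated data. Alternatives were other pseudocounts, lengths, levels, folds, scalings, component sums and counting intervals. The software was Python 3.11.15 with scipy 1.17.1, pandas 2.3.3, numpy 2.4.6 and matplotlib 3.10.9.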

Additional observations from a re-analysis of the deposited data

Results flagged for a closer look

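In 8 members a treatment stood at least 2-fold on opposite sides of the control on days 5 and 8. The share of other components that did so was not counted. With ABA, the rule set the side of day 8. The members listed with NDGA all had a day-5 dip, and a course chosen for CK5 below CK8 favours such a reversal. With 1 library for each condition the difference between the days was not tested.

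With ABA, comp100027_c0_seq1 was 3.72-fold of CK in ABA5 and 0.0285-fold in ABA8, and comp97199_c0_seq4, which is proportional to it, was 3.72-fold and 0.0286-fold. comp100571_c1_seq7 was 3.37-fold of CK in ABA5 and 0.0285-fold in ABA8. comp71276_c0_seq1 was 3.02-fold and 0.216-fold. Its levels were 32.9 and 3.04 RPKM in ABA5 and ABA8, 1.80 and 5.98 RPKM in NDGA5 and NDGA8, and 0.189, 10.8 and 14.4 RPKM in CK0, CK5 and CK8.

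With NDGA, comp52641_c0_seq2 was 15.5-fold of CK in NDGA5 and 0.427-fold in NDGA8, and comp101834_c0_seq10 was 8.29-fold and 0.373-fold. comp111268_c0_seq3 was 5.47-fold of CK in NDGA5 and 0.364-fold in NDGA8, and comp109554_c0_seq19 was 3.12-fold and 0.496-fold. These 4 are the dipping members of the largest loss in ABA8. In each of them the levels of NDGA5 and NDGA8 were closer to each other than those of CK5 and CK8. They were chosen for NDGA5 above CK5, NDGA8 below CK8 and a dip in CK5, which favours this, so it is a description.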

How the results depend on the processing

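Of 145 alternatives run over the counts reported, 123 stayed within 1.5 times the count given and 22 did not. The number of members was 41 with 1 RPKM added (all among the 79), 46 with at least 1000 nt, 166 and 34 with at least 5 and 20 RPKM in CK8, 142 and 33 with a limit of 3-fold and 6-fold, 150 with no limit on ABA5, and 47 after rescaling (all among the 79). With reads summed over components it was 109, of which 56 were components of the 79. It was 64 when the best expressed unigene of each component was taken before the rule, an alternative chosen after seeing the data. With a 1.5-fold size rule the counts were 12 higher and 25 lower in NDGA8 with CK8, 31 higher in NDGA5 with CK5, 31 lower in ABA5 with CK5, 25 lower in CK8 with CK0, 29 lower in NDGA8 with CK0, and 19 higher and 19 lower in NDGA8 with NDGA5. The components set beside the members were not counted at 1.5-fold. With the counting interval beyond 2-fold, 11 were higher in NDGA5 with CK5 and 3 lower in ABA5 with CK5, and 3 were lower in that comparison with 1 RPKM added. Without comp100027_c0_seq1 and comp97199_c0_seq4, left out after seeing the data, 3 were lower in NDGA5 with CK5 and 2 higher in ABA5 with CK5. No degradome site had 10 reads (count 0). The day-5 dip, also chosen after seeing the data, held 17 members after rescaling and 23 with a 1.5-fold limit.

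The unit of replication was missing: each condition was 1 pooled library, so differences between fruits enter every ratio unseen. No paired analysis was possible because each condition had a single library and no test was run. Leaving out a replicate was likewise not possible. Reads of unigenes in a component overlap, so levels of single forms depend on how reads were assigned to them. Sums over a component can count a read more than once. In ABA8 10 members rested on fewer than 100 reads. The added 0.1 RPKM weighs most on the folds of the 13 members under 1 RPKM there.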
